A study of Mus musculus with 23 samples.

Results

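Cytosolic ribosomal protein genes encode the proteins of the large (60S) and small (40S) subunits of the ribosome that translates nuclear mRNAs. They were taken by symbol, as Rpl or Rps followed by digits and at most a trailing letter or an l or x suffix, together with Rplp0, Rplp1, Rplp2 and Rpsa. S6 kinase genes and pseudogenes were left out, as were ribosomal components under other symbols. The rule found 72 genes on 90 probes of the array. Of these, 70 were among the 9849 genes tested, namely 43 of the 60S subunit, 24 of the 40S subunit and the 3 P stalk genes. Each gene is represented by 1 probe, the one with the highest mean over the 23 arrays. Rpl39l, a paralog known from testis, and Rpsa, also known as the laminin receptor, failed the filter, which asked for a signal above the array median on at least 2 arrays. Rpl39l passed that median on 0 arrays and Rpsa on 1. Rpl3l, the paralog known from striated muscle, passed it on 3 arrays and so is just inside.

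The study compared the mouse striatal cell lines Q111 and Q7 on Illumina bead arrays, with total RNA as the extracted molecule and biotin as the label. The groups were Q111 (Mut) cells with cystamine (250 µM), with ZDON or Boc-DON (50 µM each) or as control, and Q7 (WT) cells with the same 3 compounds at the same doses or as control. Treatment lasted 12 hours, and the labels give neither a vehicle nor a time for the controls. Every group had 3 arrays except Q7 with Boc-DON, which had 2. By their names, Q111 and Q7 are the immortalised striatal progenitor lines made from embryos of huntingtin knock-in mice with an expanded or a short CAG repeat. The title of the series names inhibition of transglutaminase 2, an enzyme that crosslinks proteins through glutamine, and all 3 compounds are used as inhibitors of transglutaminases. Each genotype is 1 line, so that a difference between the lines cannot be told apart from any other difference between them. Nothing in the labels says that replicates came from separate cultures, so the p-values reflect the spread of these arrays alone, and that spread may be technical.

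A ribosome holds most of its proteins in equal number, and cells make them in matched amounts. Much of that matching acts on translation: most of these mRNAs begin with a terminal oligopyrimidine (TOP) tract, through which the mTOR pathway and the RNA-binding protein Larp1 set how many of them are on ribosomes, a step that array signals do not measure. Some members have further roles, such as Rpl5 and Rpl11, which bind Mdm2 and so stabilise p53 when ribosome assembly fails. The genes have many processed pseudogenes and some close paralogs, and a bead array probe can catch RNA from these too, so that single members are uncertain to that extent.

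The shared sequence features of these genes lie around the transcription start. RefSeq promoters (GRCm38.p6) were matched by symbol for 58 of the 72 members. The letters CTTTC, a stretch of the kind found in TOP tracts, stood on the transcribed strand within 50 bases either side of the start in 32 of these 58 (55.2%), against 14.6% of 27025 genes with the same window. The letters CCGGAA, the core of the site bound by ETS factors such as GABP, stood on either strand between 250 bases before and 50 after the start in 32 of the 58 (55.2%), against 16.7% of all. The strings can share letters, since CCGGAA read on the other strand is TTCCGG, and they overlapped in 3 of the 58 and in 76 of the 27025. A match is a description of the letters, not a site of binding. The stretches below are shown for the genes that were called (Rpl22, Rplp0, Rpl31), the Rpl22 paralog, Rps19, and Rpl13a, Rps6 and Rpl38 as members with known roles, 120 bases before the start to 20 after it for Rpl22 and 40 before to 20 after for the others. Capitals mark CTTTC or CCGGAA.
Rpl22 (chr4:152325606-152325745, + strand): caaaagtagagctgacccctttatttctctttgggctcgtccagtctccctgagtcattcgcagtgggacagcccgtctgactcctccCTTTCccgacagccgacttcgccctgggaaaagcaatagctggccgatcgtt
Rplp0 (chr5:115559427-115559486, + strand): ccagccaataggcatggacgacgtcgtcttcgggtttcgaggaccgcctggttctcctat
Rpl22l1 (chr3:28805468-28805527, + strand): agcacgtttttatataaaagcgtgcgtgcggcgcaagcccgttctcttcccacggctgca
Rps19 (chr7:24884552-24884611, + strand): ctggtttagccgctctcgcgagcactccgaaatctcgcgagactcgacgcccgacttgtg
Rpl13a (chr7:45128726-45128785, - strand): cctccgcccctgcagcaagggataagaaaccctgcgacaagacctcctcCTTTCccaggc
Rpl31 (chr1:39367811-39367870, + strand): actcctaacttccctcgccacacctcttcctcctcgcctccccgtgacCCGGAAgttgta
Rps6 (chr4:86857348-86857407, - strand): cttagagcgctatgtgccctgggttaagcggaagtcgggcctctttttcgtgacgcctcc
Rpl38 (chr11:114668540-114668599, + strand): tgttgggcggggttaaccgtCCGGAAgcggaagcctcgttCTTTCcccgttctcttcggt
In these windows Rpl22 and Rpl13a show CTTTC, Rpl31 shows CCGGAA and Rpl38 shows both. Those of Rplp0, Rps19, Rps6 and Rpl22l1 show neither. The CTTTC of Rpl22 lies before the start shown, so an RNA from that start would not hold it. Rpl22 has 2 listed starts and Rps19 has 3, of which only the first is shown. The counts above took a match at any listed start of a gene.

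Probes of the members were among the brightest of the array. Their mean normalized log2 intensity had a median of 14.32, with a range of 6.59 to 15.03, and their median percentile on the arrays was 99.3. Of the 70 members, 58 had a mean of 12 or more and made up 4.26% of the 1362 genes at that level. The other 12 were Rpl3l, Rpl4, Rplp2, Rpl14, Rpl36al, Rps15a, Rpl29, Rpl22l1, Rps19, Rpl22, Rpl30 and Rps24. Probe brightness also depends on the probe, so these levels do not rank the genes by their amount of mRNA, and signals near the top of the scanner's range can be compressed. The labelled cell type was checked on its markers: of 5 neural progenitor markers Nes, Sox2 and Dlx1 were above the array median on all 23 arrays, Dlx2 on 12 and Pax6 on 1. Of 5 general neuron markers Map2, Syp and Tubb3 were above it on all 23, Snap25 on 1 and Syt1 on 0, while of 9 striatal projection neuron markers with a probe only Pde10a was above it on all 23 and Bcl11b, Gad1, Gad2 and Rgs9 on none. Microglial markers (3 of 3) were below it on every array. Of 5 fibroblast markers Col1a1 was above it on all 23 arrays, Col1a2 on 20, Pdgfra on 12, Dcn on 11 and Lum on 0.

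Within a group the members varied little. The SD between replicates had a median of 0.12 on the log2 scale over the 70 members, against 0.17 over all genes tested. Among genes with a mean of 12 or more it was 0.10 for the members and 0.13 for all genes at that level. That boundary does not match the members to other genes by level, as the members' median level was 14.32. Rpl41, Rps10 and Rpl3 had the smallest SDs, at 0.045, 0.047 and 0.052. Quantile normalization sets values by rank, which can narrow the spread of the very brightest probes. Rpl41, at a mean percentile of 99.99, ran from 30100.8 to 36983.5 before normalization. How far this accounts for the small SDs was not tested. Rpl22l1 had the largest at 0.43, followed by Rpl36 at 0.36, Rpl30 at 0.34 and Rpl36al, a retrogene copy of Rpl36a, at 0.26. Over the members, the 95% interval of a difference between 2 groups of 3 arrays reached 0.23 to either side of it at the median. This interval is not adjusted for the number of genes tested, whereas the p-values behind the calls are. A difference larger than 0.23 could therefore stay without a call, as did that of Rpl22 with ZDON in Q111.

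From array to array the members' common level shifted by small amounts. The median of their deviations from their own means lay between -0.17 on Q7 ZDON replicate 1 and 0.11 on Q7 cystamine replicate 2. The replicate number in the labels is the BeadChip, a glass slide that holds several arrays, and the median over arrays was -0.039 on BeadChip 1, 0.033 on BeadChip 2 and 0.031 on BeadChip 3. Arrays with a high overall signal had low members: the 4 arrays whose median intensity before normalization was 155.1 or more had member medians of -0.17 to -0.078, and the other 19, with 107.4 to 137.4, had -0.066 to 0.11. The part of this relation in the group differences below was not tested. Q7 ZDON replicate 3 read 4531 on the 18S ribosomal RNA probe, against 14240 to 27120 on the other 22 arrays, while its member median was 0.097. The call made on it and the members' medians that use it are also given without it.

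**Figure D1:**
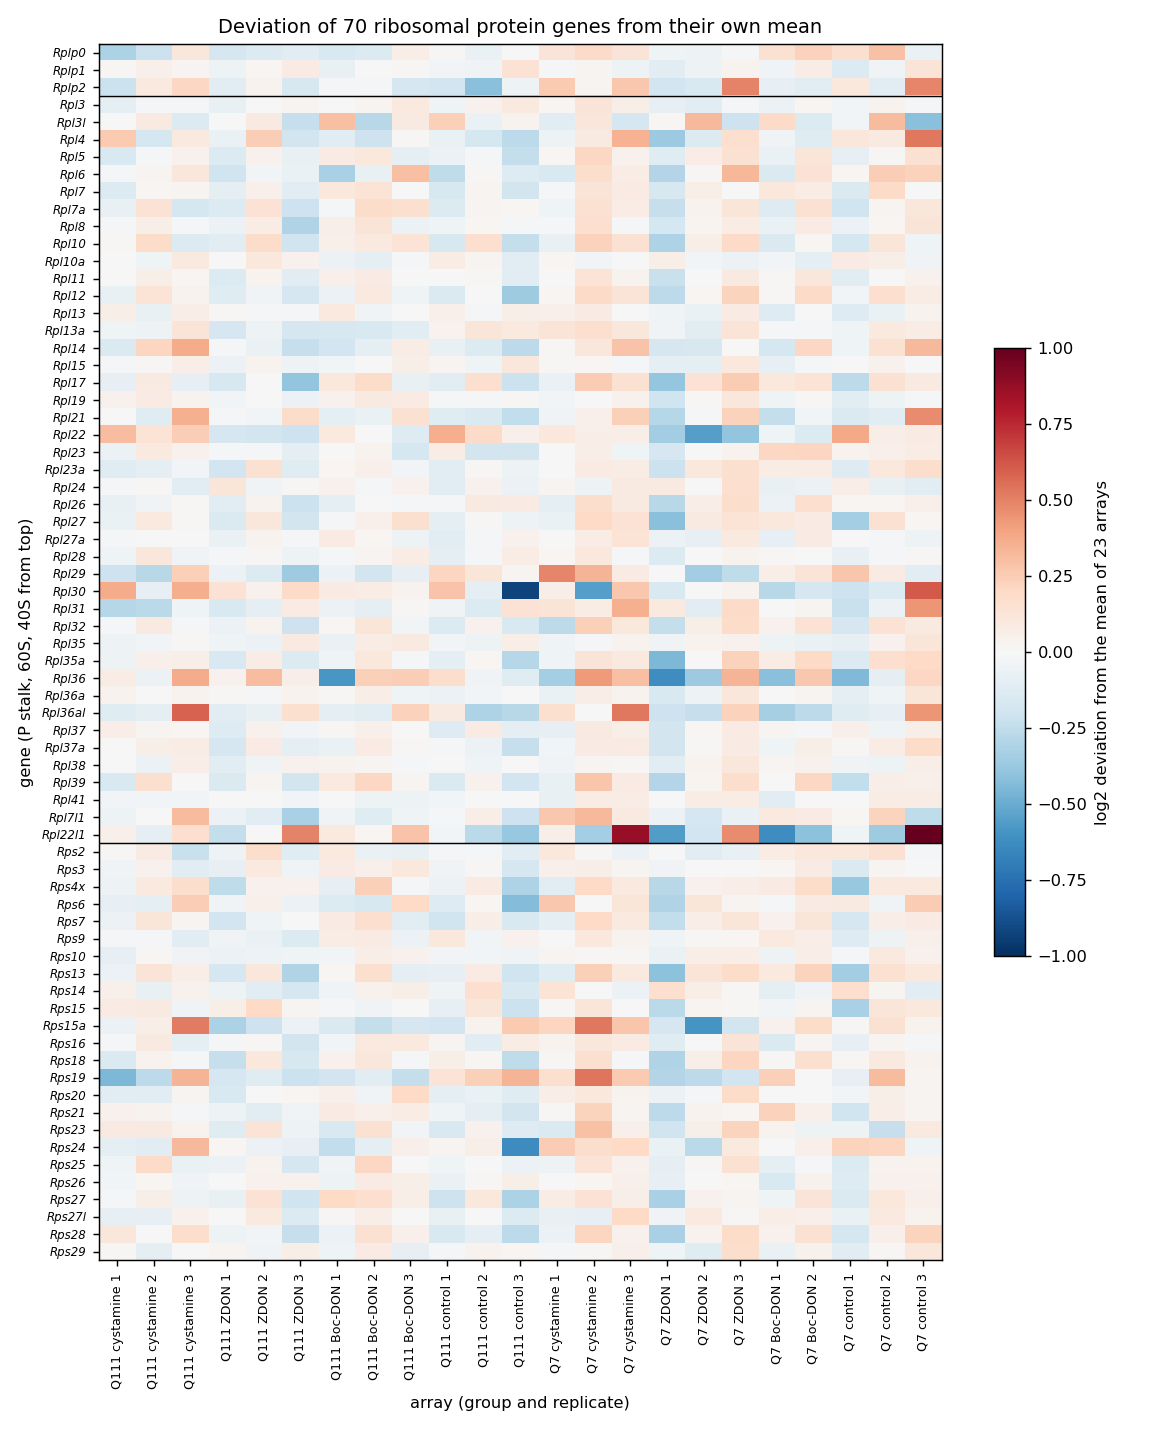
Log2 deviation of each of the 70 tested ribosomal protein genes (rows, P stalk, 60S and 40S from the top) from its own mean over the 23 arrays (columns, by group and replicate). Colours end at 1 and -1. Most cells are pale, whole columns such as Q7 ZDON 1 and Q111 control 3 lean blue, and the 3 darkest cells are Rpl22l1 in Q7 control 3 and Q7 cystamine 3 and Rpl30 in Q111 control 3.

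**Figure D2:**
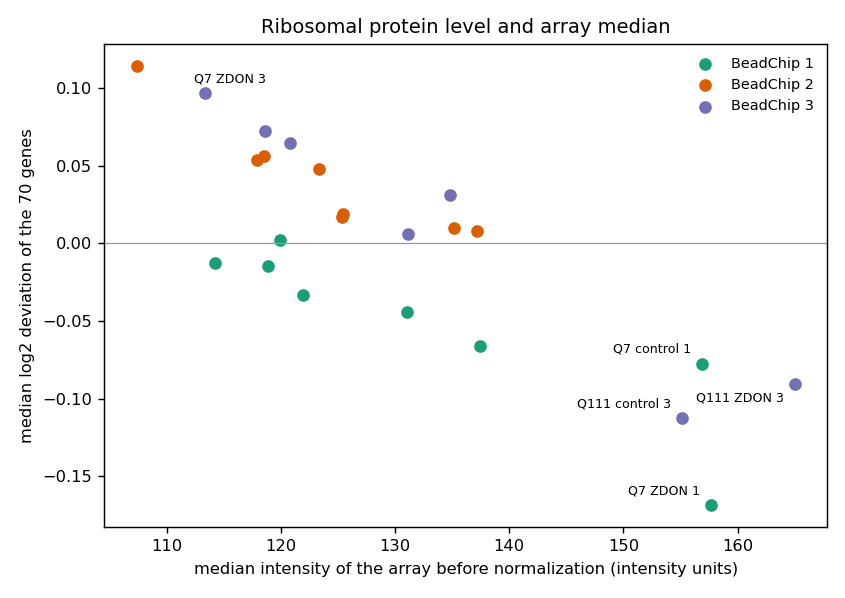
Median log2 deviation of the 70 ribosomal protein genes on each array (vertical axis) against the array's median intensity before normalization (horizontal axis), 1 point per array coloured by BeadChip. The 4 arrays above 150 on the horizontal axis sit at -0.078 or lower, and Q7 ZDON 3, the array with the low 18S reading, sits at 0.097.

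Rpl22 was the member that fell with ZDON, a call made in Q7 cells and in the mean over both lines. Its protein belongs to the 60S subunit but is not needed for general translation, binds RNA hairpins, and in mice is required for a step of T cell development. In Q7 cells with ZDON its normalized log2 intensity was 10.73, 10.52 and 10.68, against 11.45, 11.14 and 11.16 in Q7 controls. In Q111 cells with ZDON it was 10.91, 10.89 and 10.87, against 11.44, 11.26 and 11.12 in Q111 controls. All 6 ZDON arrays, at 10.52 to 10.91, thus lay below all 6 control arrays, at 11.12 to 11.45. In RNA pooled from whole cultures, fewer cells with a transcript and less of it per cell cannot be told apart.

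The difference in Q7 was -0.61 (SE 0.10, 95% interval -0.82 to -0.39) with an adjusted p of 0.0459 from limma, and 0.00563 with the BeadChip as a block. It was -0.72, -0.62 and -0.48 within BeadChips 1, 2 and 3. That call was at the edge of the threshold: leaving out any 1 of the 6 arrays ended it, with differences of -0.66 to -0.51 and adjusted p of 0.0547 to 0.651, and without Q7 ZDON replicate 3 the difference was -0.62 (adjusted p = 0.113). Leaving out 1 of the 17 arrays outside the comparison, which enter only its estimate of spread, kept the call in 3 of 17 fits (adjusted p 0.0344 to 0.0831). Rpl22 was 1 of 2 genes that passed in this comparison, in which 0.0203% of the 9849 genes were called. In Q111 the difference was -0.39 (SE 0.10, 95% interval -0.60 to -0.17) with a limma adjusted p of 0.27, or 0.0631 with the block. The Q111 response minus the Q7 response was 0.22 (SE 0.15, adjusted p = 1), which leaves an interval of -0.09 to 0.53.

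Boc-DON, given at the same dose and time, left the mean of Rpl22 between its ZDON and its control means in each line. The readings were 11.18, 11.08 and 10.95 in Q111 cells with Boc-DON and 11.03 and 10.94 in Q7 cells with Boc-DON, so that these 5 arrays all lay above the 6 ZDON arrays, which reached 10.91. In Q111 they overlapped the controls, whose lowest reading was 11.12. Against the controls of the line the difference was -0.21 in Q111 (limma adjusted p = 0.567). It was -0.27 for Q7 (adjusted p = 0.638). Neither passed. ZDON minus Boc-DON was -0.18 in Q111 (95% interval -0.39 to 0.04, adjusted p = 1) and -0.34 in Q7 (-0.58 to -0.10, adjusted p = 0.706). Both compounds were set against the same control arrays within a line. With cystamine, the 6 arrays read 11.14 to 11.38, over the range of the controls, and the differences were 0.03 in Q111 (95% interval -0.19 to 0.25) and -0.10 in Q7 (-0.31 to 0.12).

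The mean of the response over both lines was added after the values had been seen. With ZDON it was -0.50 for Rpl22 (SE 0.07, 95% interval -0.65 to -0.34, limma adjusted p = 0.00522), in a comparison that called 0.558% of all genes, 0.305% as lower. Rpl22 was the 1 member of 70 called, and it was called without each of the 12 arrays in turn, with adjusted p of 0.00384 to 0.0251 (0.00493 without Q7 ZDON replicate 3), but not under median scaling (-0.47, adjusted p = 0.117). With the BeadChip as a block, which called 1.64% of genes and again Rpl22 alone among the members, the adjusted p was 0.000322. With Boc-DON it was -0.24 (95% interval -0.40 to -0.08, adjusted p = 0.166), in a comparison that called 0.975% of genes, and the block, which called 2.78% of genes, brought that to -0.25 (adjusted p = 0.0469), the 1 member called. ZDON minus Boc-DON was -0.26 (95% interval -0.42 to -0.10, adjusted p = 0.297, blocked 0.0967), where 0.213% of genes were called and 0.833% with the block. Cystamine gave -0.03 (adjusted p = 0.917), where 2.21% of genes were called and 3.68% with the block, and -0.22 (adjusted p = 0.185) under median scaling. Neither of these last means, ZDON minus Boc-DON and cystamine, called a member in either fit. At an unadjusted p under 0.05 there were 2 and 1 members without the block, and 4 and 3 with it. The share of all genes at that p was not computed for these means.

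Rpl22l1 encodes the paralog that can take the place of Rpl22 in the 60S subunit and whose mRNA Rpl22 is known to bind and hold down in mice. Its readings depended on the BeadChip. In Q7 cells the 3 arrays on BeadChip 3 read 10.29 with cystamine, 9.89 with ZDON and 10.43 as control, against 9.48, 8.86 and 9.38 on BeadChip 1 and 9.08, 9.23 and 9.06 on BeadChip 2. With ZDON the difference was 0.31 in Q111, with an SE of 0.31 and an adjusted p of 0.914. In Q7 it was -0.30 (adjusted p = 0.999), and over both lines 0.01 (95% interval -0.44 to 0.46), or -0.13 without Q7 ZDON replicate 3. With Boc-DON it was 0.36 in Q111 (adjusted p = 0.787) and, in Q7, -0.72 (95% interval -1.43 to -0.01, adjusted p = 0.66), where Boc-DON has no array on BeadChip 3. Within BeadChips 1 and 2 that Q7 difference was -0.58 and -0.06. None of these passed, and the intervals are wide enough to hold a change in either direction for ZDON.

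**Figure D3:**
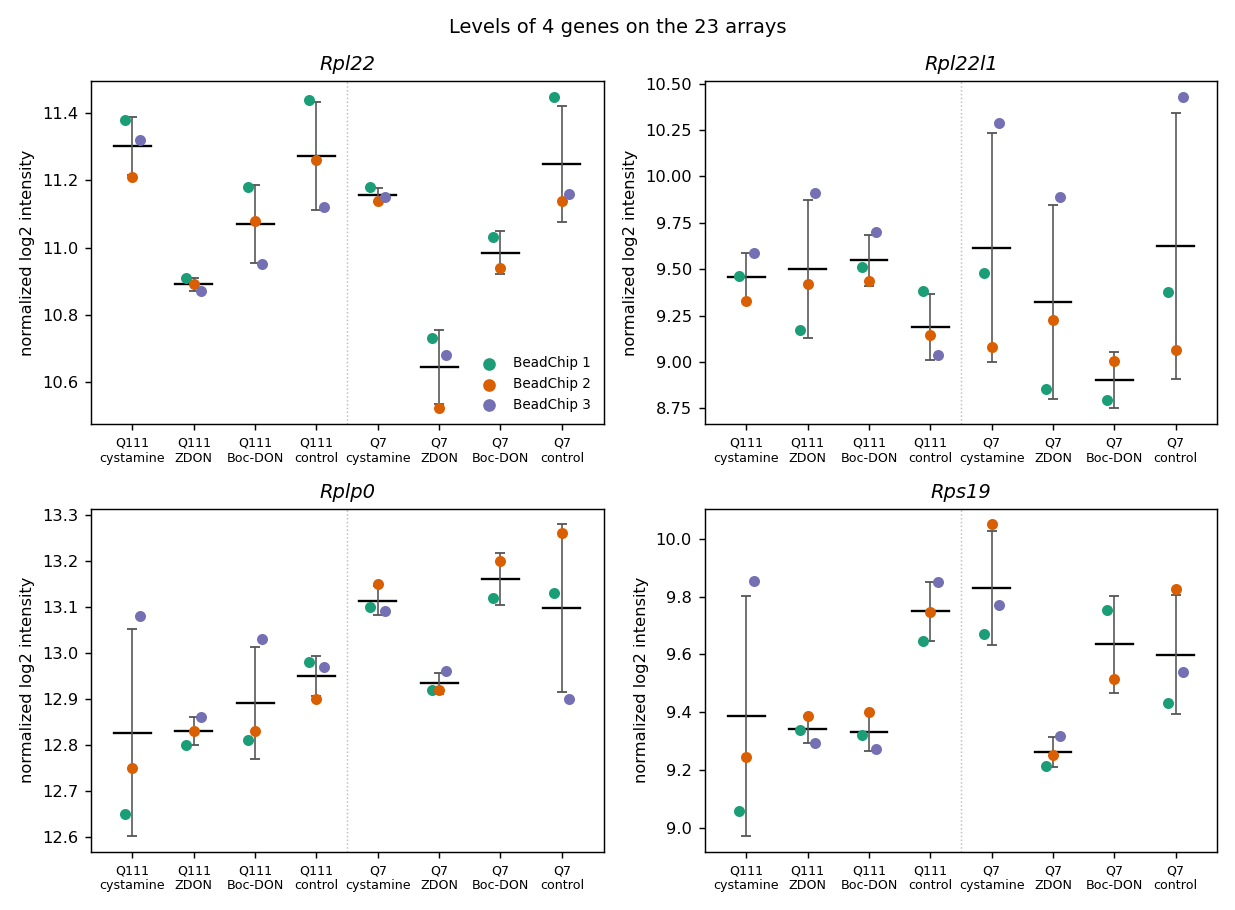
Normalized log2 intensity of Rpl22, Rpl22l1, Rplp0 and Rps19 on each of the 23 arrays by group, Q111 left and Q7 right of the dotted line. Points are arrays coloured by BeadChip, bars are group means and whiskers 1 SD. The 6 ZDON arrays of Rpl22 lie at 10.52 to 10.91, below the 6 control arrays at 11.12 to 11.45, and the 2 highest points of Rpl22l1 are Q7 arrays of BeadChip 3.

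Between the lines, the P stalk gene Rplp0 was lower in Q111. Rplp0 anchors the stalk that recruits translation factors to the 60S subunit and is a common reference gene for RNA measurements under the name 36B4. Over all 4 treatments it read 12.65 to 13.08 on the 12 Q111 arrays, with a mean of 12.87 ± 0.12 (SD), against 12.90 to 13.26 on the 11 Q7 arrays, with a mean of 13.07 ± 0.12. The ranges overlapped. The difference was -0.20 (SE 0.06, limma adjusted p = 0.0202, or 0.0126 with the block). Its second probe read 7.996 to 8.639 on the Q111 arrays, against 8.274 to 8.951 on the Q7 arrays, and differed by -0.35 (SE 0.07, adjusted p = 0.00202 over 12504 probes). The call held in 22 of 23 fits that left out 1 array, was lost without Q7 Boc-DON replicate 2 (-0.19, adjusted p = 0.0613), and was lost under median scaling (-0.13, adjusted p = 0.337). In controls alone the difference was -0.15 (adjusted p = 0.703), and within BeadChips it was -0.15, -0.36 and 0.07. The second probe differed by -0.55 between controls (adjusted p = 0.0467 over all probes). The other stalk genes, which encode the acidic proteins of its tip, stood at 0.03 for Rplp1 (adjusted p = 0.8) and -0.16 for Rplp2 (adjusted p = 0.274).

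Rplp0 was the 1 member of 70 called in the mean over 4 treatments. It was lower in Q111, where 11.3% of all genes were called, 6.46% as higher and 4.84% as lower. With the BeadChip as a block 3 members passed, against 17.2% of all genes: Rplp0, Rpl31 of the 60S subunit at -0.18 (adjusted p = 0.0205) and Rpl22 at 0.13, whose adjusted p rounded to 0.05. At an unadjusted p under 0.05 there were 4 members (5.71%), against 24% of all genes. The median of the members was -0.036 (-0.029 without Q7 ZDON replicate 3), that of all genes -0.0075, and 52 of 70 members were below 0. All 70 differences lay within 0.25 of 0, with Rplp0 and Rplp2 the lowest and Rpl36 (0.13) and Rpl22 the highest. Leaving out BeadChip 3 also gave 3 calls, namely Rpl29, Rpl30 and Rplp0, against 21.6% of all genes. Fibroblast markers moved with this comparison: all 4 tested were higher in Q111, by 1.60 for Col1a1, 1.24 for Col1a2, 1.22 for Pdgfra and 0.69 for Dcn, and their summed intensity was 1093 to 3851 on the 12 Q111 arrays, against 648 to 1167 on the 11 Q7 arrays. Between controls 2 of the 4 passed, and 3 with the block. Other marker lists moved too in the mean over 4 treatments. With and without the block, 2 of 4 tested neural progenitor markers were higher in Q111 and 1 of 5 striatal projection neuron markers was lower. With the block 1 of 3 neuron markers was higher as well. The part of these markers in the line differences given here was not tested.

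In the controls, none of the 70 members passed between Q111 and Q7 with limma, where 1.55% of all genes were called, and none with the block, where 3.26% were called. There were 3 that had an unadjusted p under 0.05 (4.29%, against 10.5% of all genes). The members' median was -0.043, that of all genes -0.0053, and again 52 lay below 0. Within BeadChips 1, 2 and 3 the members' median was 0.022, -0.032 and -0.15, and the Q111 array of BeadChip 3 is one of those with high overall signal. Without that array, Q111 control replicate 3, the median was -0.034. It was -0.11 without Q7 control replicate 1, which is also among those 4 arrays, and -0.092 without Q111 control replicate 2. The lowest values were those of Rpl22l1 (-0.43, adjusted p = 0.681) and Rpl4 of the 60S subunit, which read 7.41 on average in Q111 controls and 7.82 in Q7 controls without overlap (-0.41, adjusted p = 0.288). The Rpl4 difference was -0.18, -0.26 and -0.79 within BeadChips 1, 2 and 3, and its second probe gave -0.02 (adjusted p = 0.981). The highest were those of Rps19 (0.15) and Rpl3l (0.12).

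Cystamine, a disulfide that reacts with thiols, gave no call among the members in either line. In Q111 none of 70 passed with limma, where 0.64% of all genes were called, nor with the block, where 1.73% were. In Q7 none passed, where 0.406% were called, nor with the block, where 0.944% were. At an unadjusted p under 0.05 there were 2 members in Q111 and 0 in Q7, or 2.86% and 0%, against 10.2% and 7.63% of all genes. The members' median was 0.056 in Q111 and 0.047 in Q7, with 51 and 49 members above 0, while all genes had medians of -0.0074 and -0.0082. Within BeadChips 1, 2 and 3 the members' median was 0.0097, 0.016 and 0.14 in Q111, and without Q111 control replicate 3 it was 0.032. In Q7 it was 0.094, 0.067 and 0, and -0.0031 without Q7 control replicate 1. When the arrays were scaled to their medians in place of quantile normalization, the median of all genes moved to -0.11 in Q111 and -0.13 in Q7 and that of the members was 0.057 and 0.056, so that relative to all genes they stood higher there. The largest values were those of Rpl30 (0.46, adjusted p = 0.546), Rpl14 (0.30), Rpl29 (-0.20) and Rps19 (-0.36, adjusted p = 0.413) in Q111, and of Rps15a (0.27), Rpl7l1 (0.23), Rpl6 (-0.13) and Rpl30 (-0.16) in Q7.

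ZDON left all members but Rpl22 short of the threshold. In Q111 none of 70 passed, as was so for every gene tested (0% called), with 4 members at an unadjusted p under 0.05 (5.71%, against 6.87% of all genes). With the block 0.264% of all genes and no member passed there. In Q7 Rpl22 was also the 1 member called with the block, where 0.0508% of all genes were, and the members with an unadjusted p under 0.05 were 4 (5.71%, against 5.08%). The members' median was 0.0080 in Q111, where it turned to -0.018 under median scaling, and -0.035 in Q7, with 20 of 70 above 0. The Q7 median was 0.032 without Q7 ZDON replicate 1, the array with the lowest members of all, and -0.10 without Q7 ZDON replicate 3, the array with the low 18S reading. In Q111 it was -0.011 without Q111 control replicate 3. Beside Rpl22, the lowest values were those of Rps19 (-0.41) in Q111 and of Rps15a in Q7, at 7.99 on average with ZDON and 8.37 in controls without overlap (-0.38, adjusted p = 0.811). The highest were Rpl30 (0.37) and Rpl22l1 in Q111, and Rpl24 (0.13) and Rpl3l (0.09) in Q7.

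Boc-DON gave no call among the members in either line with limma, where 0.0609% of genes were called in Q111 and 0.0203% in Q7. With the block, 0.812% and 0.264% of genes and again no member were called. There were 3 members in Q111 and 2 in Q7 at an unadjusted p under 0.05, or 4.29% and 2.86%, against 9.16% and 7.54% of all genes. The members' median was 0.067 in Q111, with 52 above 0, and 0.020 in Q7, where it turned to -0.0028 under median scaling, to -0.042 without Q7 Boc-DON replicate 2 and to -0.034 without Q7 control replicate 1. The 40S members had a median of 0.088 and the 60S members one of 0.066 in Q111. After the genes already described, the largest values were those of Rpl29 (-0.23) and Rpl30 (0.31) in Q111, and of Rpl36al (-0.38), Rps4x (0.19) and Rps13 (0.19) in Q7.

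ZDON set directly against Boc-DON, at 50 µM and 12 hours for both, called 0% of all genes in each line and so none of the members. With the block, 0.0609% of genes were called in Q111 and 0.183% in Q7, and none was a member. The members' median was -0.060 in Q111 and -0.042 in Q7, with 52 and 45 of 70 below 0. At an unadjusted p under 0.05 there were 0 members in Q111 and 4 in Q7, against 3.87% and 6.55% of all genes. Under median scaling the Q111 median was -0.15. The Q7 median was 0.030 without Q7 ZDON replicate 1 and -0.098 without Q7 ZDON replicate 3. The outermost values were Rpl17 (-0.26, 95% interval -0.58 to 0.06), Rpl39 (-0.21), Rps15 (0.11) and Rpl36 (0.17) in Q111, and Rps15a (-0.43, 95% interval -0.77 to -0.09), Rps19 (-0.37), Rpl36al (0.23) and Rpl22l1 (0.42) in Q7.

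No member differed between the lines in its response to a compound by limma, with or without the block, as was so for all genes tested (0% called for each compound). At an unadjusted p under 0.05 there were 2 members for cystamine (2.86%), 1 for ZDON (1.43%) and 1 for Boc-DON (1.43%), against 4.02%, 2.14% and 3.25% of all genes. The medians of the Q111 response minus the Q7 response were 0.0076 for cystamine, which turned to -0.0098 under median scaling, 0.026 for ZDON and 0.053 for Boc-DON. Without Q111 control replicate 3 that for cystamine was -0.024, and that for ZDON was -0.018 without Q7 ZDON replicate 1 and 0.084 without Q7 ZDON replicate 3. Rps19 had the lowest value for cystamine (-0.59, SE 0.22, adjusted p = 1) and Boc-DON (-0.45, SE 0.23, adjusted p = 0.999). Rpl22l1 had the highest for ZDON (0.61) and Boc-DON (1.08, SE 0.46, adjusted p = 0.999).

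**Figure D4:**
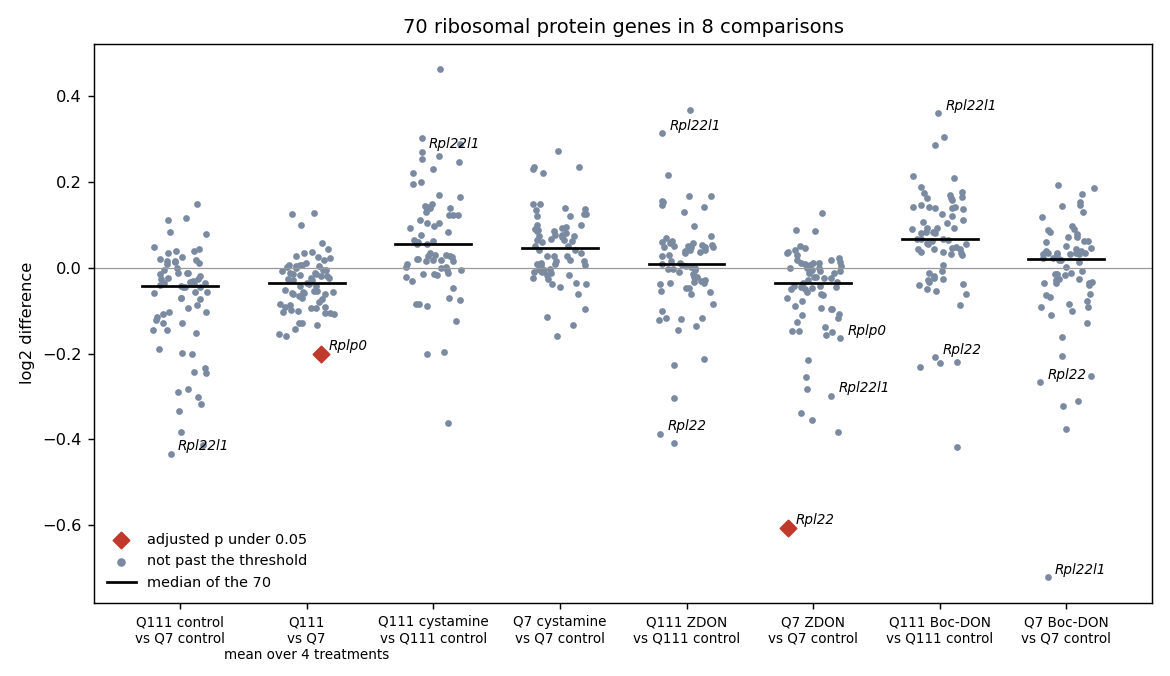
Log2 difference of each of the 70 ribosomal protein genes in 8 comparisons, 1 point per gene, with the median of the 70 as a black bar and genes with an adjusted p under 0.05 as red diamonds. The medians lie between -0.043 and 0.067, and the diamonds are Rplp0 in the mean line difference and Rpl22 with ZDON in Q7.

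Rps19, a 40S protein whose human gene is mutated in Diamond-Blackfan anaemia, was low with ZDON in both lines without a call. In Q111 it read 9.34, 9.39 and 9.29 with ZDON and 9.32, 9.40 and 9.27 with Boc-DON, against 9.65, 9.75 and 9.85 in controls, with no overlap. With cystamine it read 9.06, 9.25 and 9.85 there, and the last of these is level with the highest control. The differences in Q111 were -0.41 with ZDON, -0.42 with Boc-DON and -0.36 with cystamine (SE 0.15 each), with limma adjusted p of 0.569, 0.371 and 0.413, and none passed. They share the same controls. Without Q111 cystamine replicate 3 Rps19 did pass for cystamine (-0.60, adjusted p = 0.0272), as 1 member called where 0.954% of all genes were, and it joined Rplp0 as a second call in the mean line difference (-0.19, adjusted p = 0.0449), where 13.9% were. In Q7 it read 9.22, 9.25 and 9.32 with ZDON, against 9.43, 9.83 and 9.54 in controls (-0.34, adjusted p = 0.919). With cystamine it stood above the Q7 controls by 0.24, 0.22 and 0.23 within BeadChips 1, 2 and 3 (0.23 in all, adjusted p = 0.809), and with Boc-DON it differed by 0.32 and -0.31 within BeadChips 1 and 2. Over both lines, a mean added after the values were seen, ZDON gave -0.37 (95% interval -0.60 to -0.15, adjusted p = 0.153, blocked 0.0712) and -0.39 without Q7 ZDON replicate 3 (adjusted p = 0.165).

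The members described next, which are used as reference genes or known for particular roles, did not pass the threshold in any comparison. Rpl13a, a 60S protein of the interferon-responsive GAIT complex in human cells and a common reference gene, averaged 13.97 ± 0.070 with ZDON and 13.96 ± 0.033 with Boc-DON in Q111, against 14.18 ± 0.041 in controls (SD, n = 3 each). These groups did not overlap, at -0.21 (adjusted p = 0.658) and -0.22 (adjusted p = 0.416), while its second probe gave -0.05 and -0.04. Rps6, the substrate of the S6 kinases, read 11.89 to 12.59 over all arrays and differed by 0.20, 0.17 and 0.15 with cystamine, ZDON and Boc-DON in Q111, where control replicate 3 read 11.89, and by 0.03, -0.16 and -0.07 in Q7 (all adjusted p 0.663 or more). Rpl5 lay within -0.13 and 0.14 of 0 in the line differences and the compounds against control, and Rpl11 within -0.03 and 0.08. Rpl26, which in human cells binds the p53 mRNA, lay within -0.15 and 0.03. Rpl10, a protein of the last step of 60S maturation, lay within -0.04 and 0.17, and Rpl38, whose loss in mice alters Hox mRNA translation and the skeleton, within -0.02 and 0.04. For ZDON against Boc-DON in Q111 the values were -0.09 for Rpl5, -0.11 for Rpl11, -0.06 for Rpl26, -0.14 for Rpl10 and -0.05 for Rpl38. In Q7 Rpl11 again had -0.11. Of the 2 members that failed the filter, Rpsa read 6.41 to 6.98 and Rpl39l 6.12 to 6.70 over the 23 arrays, and a fit without the filter called neither in any comparison.

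Apart from Rpl22, no gene of a paralog pair passed in these comparisons, and differences between paralogs were not tested. Rps27, a 40S protein, read 13.98 to 14.51 and its p53-responsive paralog Rps27l 14.50 to 14.84, and with Boc-DON in Q111 the differences were 0.29 (adjusted p = 0.475) and 0.09 (adjusted p = 0.842). Rpl36a, at 14.47 to 14.74, had differences of -0.03 to 0.06 in the line differences and the compounds against control, to which the ranges here refer, while Rpl36al, at 7.90 to 8.82, had -0.38 to 0.29. Rpl3 had differences of -0.08 to 0.07 and Rpl3l, read near background at 6.17 to 6.91, -0.12 to 0.12. Rpl7 lay between -0.12 and 0.19 and Rpl7l1, a relative of a yeast factor for assembly of the large subunit, between -0.12 and 0.23. Rpl39 lay between -0.06 and 0.21 and Rps4x between -0.03 and 0.19. For ZDON against Boc-DON, Rpl39 had -0.21 in Q111, Rpl7 -0.13 in both lines, Rpl7l1 -0.19 in Q7, and Rps4x -0.10 in Q111 and -0.19 in Q7. The partners Rpl10l and Rps4l have no probe with that symbol here.

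Genes that build ribosomes, rather than form part of them, were also compared between the lines, which differ in the fibroblast and other markers given above. Of 43 tested factors of ribosome biogenesis, 14 were lower and 0 higher in Q111 over the 4 treatments by limma, where 4.84% of all genes were lower, and 21 were lower with the block (7.52%). Their median was -0.15. Noc3l, of the precursor of the 60S subunit, differed by -0.31 (SE 0.05, adjusted p = 0.00034), Heatr1, of the complex that processes the 18S precursor, by -0.30 (adjusted p = 0.00122), the helicase Ddx18 by -0.24 (adjusted p = 0.00131) and Ebna1bp2 by -0.33 (adjusted p = 0.00145). Over fits without 1 array 11 to 20 were lower. Under median scaling 1 was lower and the median was -0.081, while calls over all genes went to 1024 higher and 185 lower, against 636 and 477 with quantile normalization. In the controls alone 0 of 43 passed, with and without the block, and the median was -0.15.

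With the compounds, the biogenesis list had medians of -0.17 with Boc-DON in each line, -0.051 with ZDON in Q111 and -0.18 with ZDON in Q7, and 0.0038 and 0.077 with cystamine in Q111 and Q7. None of the 43 passed within a line without the block. With it Nop56 was higher with cystamine in Q7 (adjusted p = 0.0494), where 0.944% of all genes were called. It was lower with Boc-DON in Q111 (blocked adjusted p = 0.0214), where 0.812% were. In the mean over both lines, added after the values were seen, 3 of the 43 were lower with Boc-DON: Pes1 (-0.43, adjusted p = 0.013), needed for 60S assembly, the rRNA methyltransferase Nop2 (-0.46, adjusted p = 0.0224) and Nop56 (-0.40, adjusted p = 0.0265), a core protein of box C/D snoRNPs. This mean called 0.975% of all genes. With the block 4 of the 43 were lower, where 2.78% of all genes were called. ZDON gave 0 calls, or 2 with the block (Gar1 at -0.27 and Nop56 at -0.31), where 0.558% and 1.64% of all genes were called. ZDON minus Boc-DON gave 0 calls, where 0.213% were. With cystamine Nop56 was higher (0.35, adjusted p = 0.0196), where 2.21% of all genes were called, and that call was lost under median scaling. The 70 members had medians of -0.0086 with ZDON (-0.046 without Q7 ZDON replicate 3), 0.025 with Boc-DON and 0.051 with cystamine in the same means.

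Of the 12 tested genes of RNA polymerase I, which transcribes the rRNA precursor, Polr1a, its largest subunit, was lower in Q111 over the 4 treatments (-0.25, adjusted p = 0.0201). That is 1 of 12, against 11.3% of all genes, and with the block Taf1d was called too (adjusted p = 0.0105), against 17.2%. The list's median was -0.14. Of 69 mitochondrial ribosomal proteins, which form the separate ribosome of that organelle, 1 was higher and 7 lower, with a median of -0.051. Both directions together were near the 11.3% of all genes called. Their calls leaned to lower, whereas 6.46% of all genes were higher and 4.84% lower. The higher one was Mrpl45 (0.22, adjusted p = 0.0391), named after its value was seen, and the lower ones included Mrpl33 (-0.33, adjusted p = 0.000117), Mrpl36 (-0.49, adjusted p = 0.000788), Mrps33 (-0.16, adjusted p = 0.0314) and Mrpl38 (-0.22, adjusted p = 0.0324). With the block 3 were higher and 10 lower, where 17.2% of all genes were called, 7.52% as lower. Of 13 elongation factors and other TOP mRNAs, 0 passed without the block in any comparison, and with it Eif4b was lower with Boc-DON in Q111 (-0.57, adjusted p = 0.0155, or 0.0606 without the block). The block called 0.812% of all genes in that comparison.

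Among 15 tested regulators of TOP mRNA translation and S6 kinases, Ddit4, which restrains mTORC1 under stress, was lower in Q111 than in Q7 controls (-0.62, adjusted p = 0.0161) and higher with cystamine in Q111 (0.68, adjusted p = 0.0143). Both comparisons use the Q111 controls, and they called 1.55% and 0.64% of all genes. Deptor, an inhibitor that binds mTOR, was higher in Q111 over the 4 treatments (0.28, adjusted p = 0.00648). That is 1 of 15 called, against 11.3% of all genes. With the block Myc, Rps6ka3, Ddit4, Rps6ka5 and Tial1 were lower in that comparison (adjusted p 0.0158 to 0.0418). The block called 17.2% of all genes in it, 7.52% as lower. Myc was higher with cystamine in Q111 with the block (0.50, adjusted p = 0.0466, or 0.235 without it), where 1.73% of all genes were called. None of these genes measures translation itself.

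**Figure D5:**
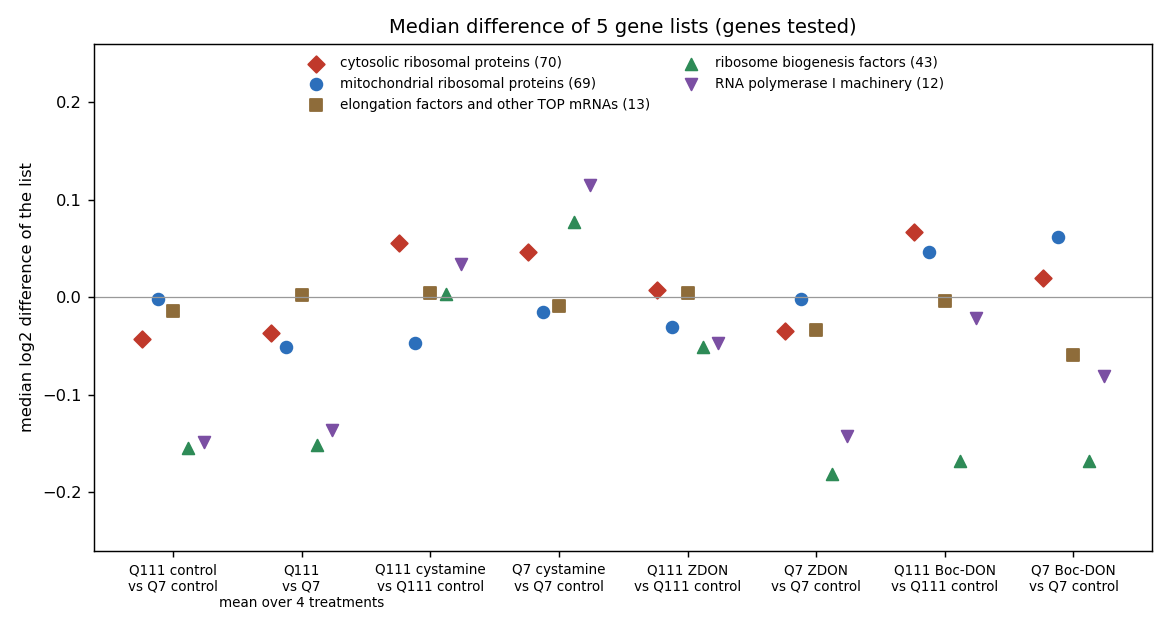
Median log2 difference of 5 gene lists in 8 comparisons, with the number of genes tested in the legend. The cytosolic ribosomal proteins (red diamonds) stay between -0.043 and 0.067, and the biogenesis factors (green triangles) reach -0.18 with ZDON in Q7.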

How the data were processed

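RNA of 23 samples of the mouse lines Q111 and Q7 was measured on Illumina bead arrays. The deposited intensity values were summarised by the authors with BeadStudio, per the submitters' processing notes, while for background subtraction no statement was found in the labels. The deposited log2 values of the authors equal a quantile normalization of log2 intensities within 5e-09 and served as an alternative. A further array column (1) matched no sample and was left out.

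With limma 3.58.1 in R 4.3.3, normexp (offset 50) corrected the intensities for background, and quantile normalization and log2 followed. Of 24611 probes, 15049 exceeded their array's median on at least 2 arrays, 12504 of them with a symbol from the platform annotation, updated by Entrez ID through RefSeq. The brightest probe per gene left 9849 genes. The probe whose ID names 18S rRNA was kept out of the genes. The number of arrays limits the precision.

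One limma model held a mean for each of 8 groups (15 residual degrees of freedom). P-values were adjusted by Benjamini-Hochberg over all genes of a comparison, at a threshold of 0.05. The code was tested on simulated data. Replicate numbers follow the BeadChip. Deviations from group means correlated across genes with a median of 0.209 for arrays of the same number (72 of 77 pairs above 0). For different numbers the median was -0.112 (44 of 154) (genes do not count as replicates in this). Deviations sum to 0 within a group, so the second value is tied to the first and is no separate evidence. Because of the correlation at the same number, a blocked model with the number as a term (13 degrees of freedom) was fitted too. Alternatives were median scaling, no filter, the block, deposited values, uncorrected background, the compared groups alone, other choices of probe, leaving out BeadChip 3 and leaving out each array.

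Members, lists and naming rule were chosen with earlier results of these data known. Named members are, per comparison, those past the threshold (up to 6 each way) or otherwise the 2 largest differences each way, plus fixed reference genes, genes with known roles and paralogs, and, per list, up to 4 with the smallest adjusted p. Rpl31, Rps19 and other values in further comparisons, list members called only with the block and groups that do not overlap were singled out after their values were seen.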

Additional observations from a re-analysis of the deposited data

How the results depend on the processing

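The count of members called and the members' median were recomputed under the alternatives of 13 comparisons. Of 222 alternative counts 208 stayed at 0 where the first value was 0, or within 1.5 times a first value above 0. The first value was 0 in every comparison but the mean line difference and ZDON in Q7. Of 222 medians 2 moved by more than 0.071, the SD of the median between replicates, and 22 had the opposite sign of a value near 0. In the mean line difference 1 member was called, against 3 with the replicate block, 3 without BeadChip 3, and 0 to 2 with 1 array left out (0 without Q7 Boc-DON replicate 2, 2 without Q111 cystamine replicate 3). Rplp0 fell short under median scaling (-0.13, adjusted p = 0.337), which brought in Rpl22 (0.24, adjusted p = 0.039). For ZDON in Q7 the 1 call, Rpl22, became 0 without the filter (adjusted p = 0.0841), 0 under median scaling (-0.60, adjusted p = 0.999), 0 with the compared groups only (adjusted p = 1), where the model has fewer arrays, and 0 to 0 with 1 array left out (0.0547 to 0.651). Its direction held in each. The fits of this call without arrays outside the comparison were added after seeing the data. For cystamine in Q111 the count was 0, and 0 to 1 with 1 array left out. The median of ZDON against Boc-DON was -0.15 in Q111 under median scaling, and -0.098 to 0.030 in Q7 with 1 array left out. The replicate block, with BeadChips shared by all groups but 1, changed no other count of members called within the 13 comparisons. Over all genes it raised the calls of the mean line difference to 1693, against 1113 without it, and those between controls to 321, against 153. The cause of these changes was not tested, beyond the fewer arrays of some fits. High signal with little headroom and probes shared with pseudogenes limit what single members show.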
